A study of Mus musculus with 19 samples.

Results

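The genes described here are 7 components of Nodal signalling, taken by name from a table of 24016 mouse genes: *Nodal*, *Gdf3*, *Tdgf1*, *Acvr2b*, *Lefty1*, *Lefty2* and *Smad7*. They were chosen with their RNA levels and nearby peaks already known, so their differences between groups are given as descriptions with no test. The study asked what the nucleoporin Nup153, a protein of the nuclear pore basket, does at genes of mouse embryonic stem cells (ESC). RNA, ChIP-seq peaks and DamID peaks were collected in 19 samples. DamID marks the DNA that a protein fused to a bacterial adenine methylase (Dam) has been close to.

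All ESC were of the E14 line and were grown with LIF and serum replacement on irradiated embryonic fibroblasts. Control ESC carried a lentiviral non-target hairpin (shCTRL), and the knockdown ESC carried 1 of 2 lentiviral hairpins against Nup153, shNup153 #2 or #4. All 3 ESC groups had been selected with puromycin, for at least 4 days before harvest. Neural precursor cells (NeuP) were made through embryoid bodies without LIF, then Noggin, and were kept with FGF2 and EGF. They carried no hairpin, and the labels name no parental line for them. For DamID, ESC were infected with virus carrying Dam fused to Nup153, Oct4 or GFP behind a heat shock promoter, so these sites come from introduced fusion proteins. RNA was measured in 1 control library, 1 library for each hairpin and 2 NeuP replicates. The labels do not say that the libraries came from separate cultures, so the spread between them may be technical.

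Nodal is a secreted ligand of the TGF-beta family that signals through activin receptors together with the co-receptor Cripto, the product of *Tdgf1*. The receptors phosphorylate SMAD2 and SMAD3, which enter the nucleus with SMAD4 and act with partners such as FOXH1. Lefty proteins block the ligand and co-receptor, SMAD7 blocks the receptors, and *Lefty1*, *Lefty2* and *Nodal* itself are known targets of the pathway, which forms a feedback loop in the early embryo and operates in ESC.

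The cells fitted their labels by marker genes. The summed level of 7 pluripotency markers was 1503, 1524 and 1662 FPKM (fragment counts divided by transcript length and sequencing depth) in control, hairpin #2 and hairpin #4, and 118 and 91.5 FPKM in the NeuP replicates. *Sox2*, which neural precursors also express, made most of the NeuP sum. The sum of 6 neural progenitor markers was 7.56 to 13.3 FPKM in ESC and 3032 and 3925 FPKM in NeuP. *Fabp7* made most of this NeuP sum, at 2454 and 3143 FPKM. *Nes*, *Pax6*, *Olig2* and *Ptprz1* were also higher in both NeuP replicates than in every ESC library. *Sox1* did not separate the cells, at 2.16 and 1.82 FPKM in NeuP and 0.948, 1.84 and 1.41 FPKM in control, hairpin #2 and hairpin #4. *Nup153* itself was at 39.4 FPKM in control and at 20.9 and 17.4 FPKM in hairpins #2 and #4, 0.530 and 0.440 of control. Depth was 24.3 to 32.2 M fragments per library, recovered from the step that 1 read makes in the FPKM values.

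The 5′ flanks of *Nodal* and *Tdgf1* are shown because DamID peaks of both Oct4 and Nup153 covered the starts of these 2 genes. The RefSeq promoter table (GRCm38.p6) matched 3 of the 7 genes, these and *Acvr2b*. Each sequence is the 250 bases before the transcript start, read in the direction of the gene: chr10:61417722-61417971 on the plus strand for *Nodal* and chr9:110946159-110946408 on the minus strand for *Tdgf1*. Capitals mark the matches to 6 short motifs that were searched on both strands.
Nodal: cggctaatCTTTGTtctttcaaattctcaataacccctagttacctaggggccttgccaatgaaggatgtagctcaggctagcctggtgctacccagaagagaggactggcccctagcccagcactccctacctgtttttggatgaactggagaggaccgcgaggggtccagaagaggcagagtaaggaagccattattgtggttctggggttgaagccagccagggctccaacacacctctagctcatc
Tdgf1: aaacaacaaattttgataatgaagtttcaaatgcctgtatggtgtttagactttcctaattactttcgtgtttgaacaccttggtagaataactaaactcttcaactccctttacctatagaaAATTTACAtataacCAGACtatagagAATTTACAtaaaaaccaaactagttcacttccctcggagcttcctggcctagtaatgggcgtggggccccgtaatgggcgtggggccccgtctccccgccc
In the *Nodal* flank the capitals are the SOX core ACAAAG, read on the opposite strand as CTTTGT, beginning 242 bases before the start. The SOX core was present in 16.5% of 32851 promoter windows of the same length. In the *Tdgf1* flank the FOXH1 core AATNNACA occurred as AATTTACA beginning 127 and 101 bases before the start, with the SMAD box CAGAC between the pair at 113 bases. The FOXH1 core was in 10.9% of all windows and the SMAD box in 42.2%, and none of these matches overlapped another. The octamer ATGCAAAT (1.6% of windows), the Dam site GATC (41.9%) and TATAAA (12.4%) were in neither flank. The *Nodal* flank was 53.2% G and C and the *Tdgf1* flank 42%, beside a median of 52.4%. The matches describe letters and show no binding. The peaks below are in mm9 and were not carried over to this build.

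The ligand genes had more RNA in both Nup153 hairpin libraries than in control. *Nodal* (NM_013611, mm9 chromosome 10, 60880720 to 60888085, plus strand) was at 9.08 FPKM in control, 20.0 FPKM in hairpin #2 and 19.6 FPKM in hairpin #4, from 481, 1305 and 1046 reads. The ratio to control was 2.21 for hairpin #2 (95% counting interval 1.99 to 2.46) and 2.16 for hairpin #4 (1.94 to 2.42). The knockdown mean was 19.8 ± 0.283 FPKM (SD, n = 2), and both hairpins were above the single control library. All such intervals rest on exact counting of the recovered reads and cover counting error only. In bulk RNA, fewer cells of a type and less RNA per cell cannot be told apart.

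*Gdf3* (NM_008108, chromosome 6, 122555421 to 122560089, minus strand) encodes a second TGF-beta family ligand that also uses Cripto. It was at 8.16 FPKM in control, 18.3 FPKM in hairpin #2 and 18.5 FPKM in hairpin #4. Its ratios to control were 2.24 (2.00 to 2.50) and 2.27 (2.03 to 2.55). The ligand genes therefore had nearly the same levels in each of the 3 ESC libraries, from different chromosomes. Neither gene had a read in either NeuP library. With NeuP set at a floor of 3 reads per library, the lower hairpin library was 332-fold higher for *Nodal* and 311-fold higher for *Gdf3*. Control was 139-fold higher for *Gdf3*. These folds leave out counting error in the ESC libraries.

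*Tdgf1* (NM_011562, chromosome 9, 110842112 to 110848662, minus strand), the Cripto gene, was the most abundant of the 7 per length in each of the 3 ESC libraries. It was at 54.3 FPKM in control, 48.0 FPKM in hairpin #2 and 104 FPKM in hairpin #4. The hairpins lay on opposite sides of control, with ratios of 0.884 (0.838 to 0.932) and 1.92 (1.83 to 2.02). The knockdown mean of 76.2 ± 39.9 FPKM (SD, n = 2) thus rests on hairpin #4: without it the log2 difference from control was -0.17 in place of 0.38. NeuP had 0.130 and 0.021 FPKM, from 8 reads and 1 read.

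*Acvr2b* (NM_007397, chromosome 9, 119311619 to 119342624, plus strand), a type II activin receptor, was the only one of the 7 below control with both hairpins. It was at 12.2 FPKM in control, 11.4 FPKM in hairpin #2 and 10.2 FPKM in hairpin #4. The ratio was 0.932 (0.828 to 1.05) for hairpin #2, an interval that includes equality, and 0.832 (0.731 to 0.947) for hairpin #4. NeuP had 2.91 and 0.512 FPKM, from 158 and 21 reads, so the replicates differed from each other, and both were below all 3 ESC libraries.

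The *Lefty* genes were the lowest in control and had the highest ratios to it. *Lefty1* (NM_010094, chromosome 1, 182865170 to 182868532, plus strand) was at 0.247 FPKM in control, 2.53 FPKM in hairpin #2 and 3.56 FPKM in hairpin #4. These rest on 10, 126 and 145 reads, so the ratios of 10.3 and 14.4 carry wide counting intervals, 5.40 to 21.9 and 7.63 to 30.7. On the log2(FPKM + 1) scale, which understates changes of low genes, the mean difference was 1.69 with a standard error of 0.21. That error comes from the limma fit of all 5 libraries, where both NeuP libraries were at 0 for this gene. It does not measure the spread of the single control.

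*Lefty2* (NM_177099, chromosome 1, 182823250 to 182829233, plus strand) lies beside *Lefty1*, with 41920 bases between their starts. It was at 0.562 FPKM in control, 1.78 FPKM in hairpin #2 and 1.61 FPKM in hairpin #4, with 35, 136 and 101 reads. Its ratios were 3.16 (2.17 to 4.73) and 2.87 (1.94 to 4.35). The Lefty proteins are close paralogs and no source used here says how reads fitting both transcripts were counted, so the split between them is uncertain. Both genes had 0 reads in both NeuP libraries. With the floor of 3 reads control was at least 3.19-fold higher than NeuP for *Lefty1* and at least 11.2-fold higher for *Lefty2*.

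*Smad7* (NM_001042660, chromosome 18, 75527019 to 75555588, plus strand), the inhibitory SMAD, had nearly equal levels in the ESC libraries. It was at 10.3 FPKM in control, 10.7 FPKM in hairpin #2 and 10.9 FPKM in hairpin #4. Both counting intervals of the ratio to control included 1, at 0.957 to 1.12 and 0.973 to 1.14. The mean log2 difference of 0.06 became -0.06 after quantile normalization. NeuP had 2.24 and 0.715 FPKM, both below every ESC library.

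**Figure D1:**
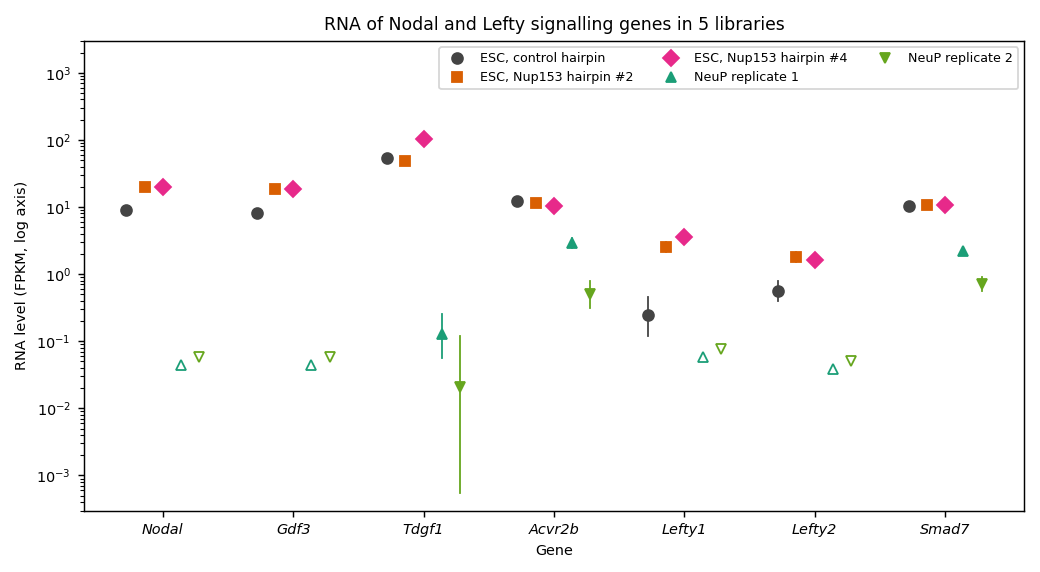
RNA level (FPKM, log axis) of the 7 genes in each of the 5 libraries, with bars for the 95% counting interval; open symbols stand for the level that 3 reads would give in a library with 0 reads. *Nodal*, *Gdf3*, *Lefty1* and *Lefty2* lie at least 2-fold above control with both hairpins, and *Smad7* only slightly above it with both. *Tdgf1* lies above control with hairpin #4 only, and every NeuP point lies below the ESC points of its gene.

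In all, 4 of the 7 genes were at least 2-fold above control with both hairpins, *Nodal*, *Gdf3*, *Lefty1* and *Lefty2*, where 5.38% of the 13750 genes tested were. At least 2-fold below control with both hairpins were 0 of 7, beside 0.669%. Just inside the 2-fold threshold lay *Nodal*, at 2.16 with hairpin #4, and just outside it *Tdgf1*, at 1.92 with hairpin #4 but 0.884 with hairpin #2. The number above control with both hairpins, by any amount, was 5 of 7, beside 55% of all genes, and the number below with both was 1 of 7, beside 29.5%. These shares describe genes chosen for this pattern, and nothing is read from them. At an adjusted p under 0.05, limma called 0% of all genes in the knockdown, in either direction. At an unadjusted p under 0.05 there were 814 genes, 497 with voom on the recovered reads, 4680 without NeuP replicate 1, 4668 without NeuP replicate 2 and 4672 with the ESC libraries alone. None of these settings gave a call after adjustment. All 7 genes entered the fit, *Lefty1* and *Lefty2* only because the knockdown libraries passed the minimum of 1 FPKM.

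In NeuP all 7 genes were below all 3 ESC libraries, beside 46.4% of the genes tested. None was above all 3, beside 31.4%, and 4 of 7 had no read in either NeuP library, beside 3.43%. The genes tested are those that passed the minimum of 1 FPKM, which *Lefty1* and *Lefty2* did only through the knockdown libraries. The 7 genes were also chosen with their RNA levels known, so nothing is read from these shares. The NeuP comparison uses the same single control library as the knockdown comparison. Among ESC genes, per-length levels in control ran from *Tdgf1* through *Acvr2b*, *Smad7*, *Nodal* and *Gdf3* down to *Lefty2* and *Lefty1*. *Acvr2b* and *Smad7*, at 12.2 and 10.3 FPKM, and *Nodal* and *Gdf3*, at 9.08 and 8.16 FPKM, are neighbours in that order whose distance cannot be judged against replicates, because control had 1 library.

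Markers of other cell types also differed between the ESC libraries. All 8 markers of primitive and definitive endoderm were higher than control with both hairpins, with summed levels of 30.6, 46.1 and 65.5 FPKM in control, hairpin #2 and hairpin #4. None of these 8 was at 0 in ESC. Of the 13750 genes tested, 55% were higher and 29.5% lower with both hairpins. The rise was not particular to the endoderm list. Of 7 pluripotency markers 5 were higher and 2 lower with both hairpins. Of 6 neural progenitor markers 4 were higher and 0 lower. Nothing is read from these marker counts or from those that follow. The 6 mesoderm markers summed to 2.37, 3.82 and 3.38 FPKM, with 2 higher in both hairpins and 1 at 0 in hairpin #2. The 6 trophoblast markers summed to 132, 94.9 and 90.6 FPKM, with 3 lower in both hairpins and none at 0. Those 3 were the keratins *Krt7*, *Krt8* and *Krt18*, and *Krt18* alone was at 75.7, 45.6 and 45.4 FPKM. *Tfap2c*, *Cdx2* and *Elf5* were not lower with both hairpins. *Cdx2* was at 0.663, 0.480 and 0.770 FPKM and *Elf5* at 0.075, 0.106 and 0.074 FPKM. The 9 feeder fibroblast markers, relevant because all ESC were grown on fibroblasts, summed to 5.88, 9.92 and 8.75 FPKM, with 3 higher and 2 lower in both hairpins. *Lum* was at 0 in all 3 ESC libraries. In NeuP the same fibroblast list summed to 55.6 and 112 FPKM, led by *Col3a1* at 24.9 and 46.1 FPKM, and endoderm markers to 19.6 and 17.5 FPKM, with 2 and 1 at 0. The part of these cells in the levels of the 7 genes was not tested.

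The other genes of the pathway gave no call in the knockdown. From a list of 48 Nodal and activin genes, 41 were not among the 7 and 33 of those passed the minimum. In the knockdown limma called 0 of 33, with 4 at an unadjusted p under 0.05, 15 when NeuP replicate 1 or replicate 2 was left out and 16 with the ESC libraries alone. The median log2 difference was 0.27, beside 0.08 for all genes, and 0.13 beside 0.00 after quantile normalization. With both hairpins 25 of the 33 were above control, beside 55% of all genes, and 5 below, beside 29.5%. At least 2-fold above with both was 1 of 33, *Sox17*, beside 5.38%.

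The 7 downstream targets that were tested, among them *Gsc*, *Eomes*, *Foxa2*, *Sox17*, *Otx2* and *Nanog*, were all above control with both hairpins. Their median log2 difference was 0.52, and 0.36 after quantile normalization, where the knockdown mean of all 7 was above control. *Sox17* and *Foxa2* passed the minimum of 1 FPKM only through the hairpin libraries. The listed targets under that minimum, *Mixl1*, *T*, *Lhx1* and *Fgf8*, each had a hairpin library below control. The count of 7 therefore depends in part on the filter, and nothing is read from it. *Sox17*, an endoderm transcription factor that is also in the endoderm marker list, was at 0.468 FPKM in control and at 1.26 and 1.99 FPKM in hairpins #2 and #4. Its log2 difference was 0.82 (standard error 0.22, limma adjusted p 0.825). *Foxa2*, another endoderm factor in both lists, had a log2 difference of 0.60 (adjusted p 0.825 in limma). *Ski*, a co-repressor of SMADs, had the largest log2 difference of the 12 inhibitors tested, 0.68, with levels of 12.6, 21.2 and 20.4 FPKM in control, hairpin #2 and hairpin #4. The SMADs and their partners were the only role with more genes below control than above, 4 against 2 of 6. Among them *Foxh1*, the SMAD partner, was at 33.3, 28.2 and 28.4 FPKM, and *Drap1*, a FOXH1 inhibitor, at 82.7, 68.8 and 61.6 FPKM. *Tgif2*, one of the inhibitors, had a log2 difference of -0.27, with 15.6, 12.4 and 13.2 FPKM in control, hairpin #2 and hairpin #4. None of these pathway genes passed the test in the knockdown.

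In NeuP 13 of the 33 passed the limma test, 2 higher and 11 lower, where 18.3% of all genes were higher and 24.9% lower. The median log2 difference was -0.22 beside -0.26 for all genes. The genes that rose were both type II receptors: *Tgfbr2*, the TGF-beta receptor, by 2.12 on the log2 scale (limma adjusted p 0.00410), and *Acvr2a*, the paralog of *Acvr2b*, by 1.70 (adjusted p 0.0110 in limma). Both calls were lost without hairpin #2 or without hairpin #4, and over all alternatives the limma adjusted p ran from 0.000825 to 0.0626 for *Tgfbr2* and from 0.00167 to 0.113 for *Acvr2a*. The 11 genes that fell included *Acvr1b*, a type I activin receptor, *Smad2* and *Foxh1*, the inhibitors *Fstl3*, *Dact2* and *Tgif1*, and the targets *Gsc*, *Eomes*, *Otx2* and *Nanog*. Of these *Acvr1b*, *Smad2* and *Tgif1* lost the call when hairpin #2 or hairpin #4 was left out. *Acvr1b* and *Gsc* also lost it without the filter on low values and after quantile normalization, *Smad2* without the filter, and *Acvr1b* with a pseudocount of 0.1. *Acvr2a* was at 2.46 FPKM in control, whereas *Acvr2b* was at 12.2 FPKM in control. *Inhbb*, an activin subunit gene, had a log2 difference of 2.16 that did not pass (limma adjusted p 0.0603). It passed when NeuP replicate 1 or replicate 2 was left out, and 24 of the 33 pathway genes were called without replicate 2. Of the 7 targets 5 fell, among them *Nanog* by 7.19 on the log2 scale and *Otx2* by 2.77. *Foxh1* fell by 5.03 on the same scale, with 2 reads in each NeuP library. *Nanog* and *Foxh1* shared the smallest limma adjusted p, 0.00238. *Smad2* fell too, by 0.96, and *Smad4*, the shared partner SMAD, had a log2 difference of -0.10 (limma adjusted p 0.710).

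**Figure D2:**
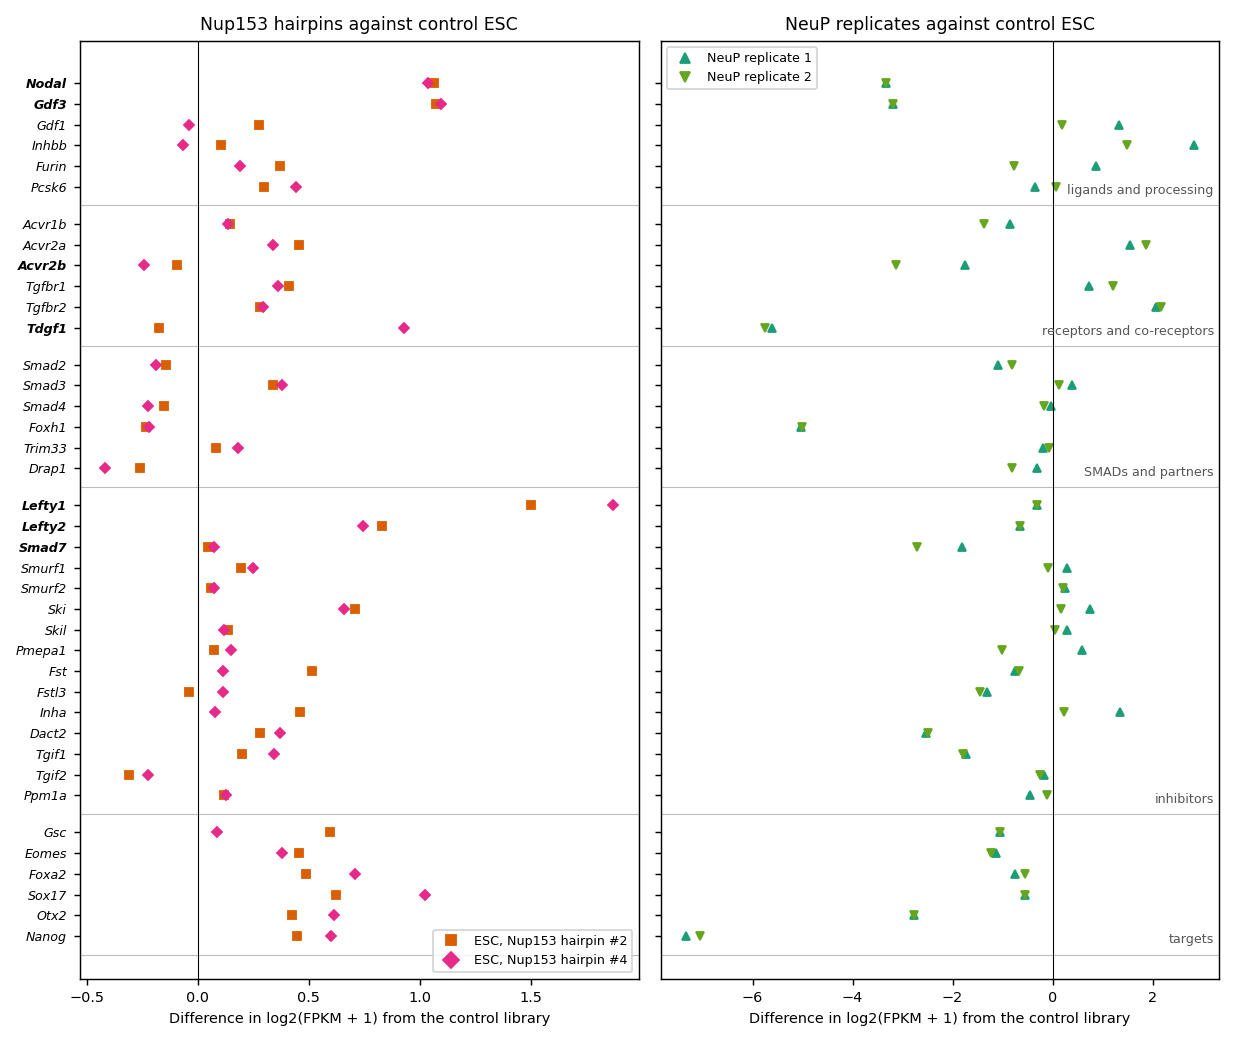
Difference in log2(FPKM + 1) from the control library for the 7 genes (bold) and other pathway genes that were tested, grouped by role, with 1 point per hairpin (left) or NeuP replicate (right). *Lefty1*, *Gdf3* and *Nodal* lie farthest right with the hairpins, and *Nanog*, *Tdgf1* and *Foxh1* farthest left in NeuP.

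The genes whose levels over the 5 libraries were most like each of the 7 were found by the straight-line distance between their log2(FPKM + 1) values, each gene centred on its own mean, and 2 were named for each. *Nodal* and *Gdf3* had the same 2, *Cobl* (distances 0.30 and 0.29) and *Mir293* (0.37 and 0.32), and were closer to each other, at 0.13, than to either. *Cobl*, an actin nucleator gene, was at 10.2, 16.7 and 19.6 FPKM in control, hairpin #2 and hairpin #4. *Tdgf1* had no close match, with *Lama1* at 0.69 and *Mir3063* at 0.77. *Acvr2b* was nearest to *Klf11* (0.15) and *Arrdc1* (0.16), *Smad7* to *Galt* (0.17) and *Pmm1* (0.18), *Lefty1* to *Mir6910* (0.55) and *Aspa* (0.58), and *Lefty2* to *Dock5* and *Tex21* (both 0.11). The 7 genes were therefore not all close on this scale: *Lefty1* and *Lefty2* were 0.86 apart and *Tdgf1* was over 2 units from each of the others. The distance also depends on how much RNA a gene has. *Nodal* and *Tdgf1* both had almost no RNA in NeuP, yet their log2 differences from control there were -3.33 and -5.69.

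Peaks were assigned to a gene when they shared at least 1 base with the stretch from 10 kb before its start to its transcript end. The lists hold positions without heights, so they show where a peak was called and not how strong it was. Every ChIP list came from 1 library, and the ChIP libraries differed in depth: 24.6 M and 20.1 M tags for Oct4 in control and hairpin #2, 4.99 M, 30.8 M and 9.95 M for Ring1B in control, hairpin #2 and hairpin #4, 22.5 M for Cbx7 and, in NeuP, 33.2 M for Ring1B. Cbx7 and Ring1B belong to Polycomb repressive complex 1, where Ring1B is the enzyme that adds ubiquitin to histone H2A and Cbx7 reads methylated histone H3. Because these peaks were part of how the genes were chosen, their counts carry no test.

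Oct4, the pluripotency factor encoded by *Pou5f1*, had a ChIP peak at 3 of the 7 genes in control ESC, *Nodal*, *Gdf3* and *Lefty1*, beside 3.56% of all genes and 5.29% of genes at 1 FPKM or more in control. In hairpin #2 it had a peak at 5 of 7, the same 3 with *Tdgf1* and *Lefty2*, beside 3.78% and 5.62%. At the 3 shared genes the peaks of control and hairpin #2 overlapped. In the whole control list 64.3% of 1462 peaks were overlapped by the hairpin #2 list, and 58.8% of the 1598 hairpin #2 peaks by the control list. A peak missing from 1 list does not show that binding was absent. *Pou5f1* RNA was at 543, 476 and 501 FPKM in control, hairpin #2 and hairpin #4.

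Nup153 DamID peaks lay at 4 of the 7 genes, *Nodal*, *Tdgf1*, *Lefty2* and *Smad7*, beside 11.4% of all genes and 17.2% of those at 1 FPKM or more. Oct4 DamID peaks lay at 3 of 7, *Nodal*, *Tdgf1* and *Lefty2*, beside 8.47% and 12.9%. Each of the 4 Oct4 DamID peaks at these 3 genes was overlapped by a Nup153 DamID peak, where 40.7% of the whole Oct4 DamID list was. Both DamID lists come from ESC without a Nup153 hairpin.

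Ring1B peaks were at 6 of the 7 genes in control ESC, all but *Acvr2b*, beside 23.3% of all genes and 30.8% of those at 1 FPKM or more. They were at 7 of 7 in hairpin #2 (36.9% and 45.9%) and at 5 of 7 in hairpin #4, all but *Acvr2b* and *Smad7* (24.1% and 29.7%). *Nodal*, *Gdf3*, *Tdgf1*, *Lefty1* and *Lefty2* had a Ring1B peak in all 3 ESC lists. The share of all genes with a peak in all 3 was not counted, so nothing is read from this. In NeuP, where the 7 genes had less RNA, Ring1B peaks were at 0 of 7 (24.8% and 31.4%), but at 6 of 7 when the window reached 50 kb on both sides. The share of all genes with a peak in that wider window was not counted. Cbx7 peaks in control ESC were at 3 of 7, *Lefty1*, *Lefty2* and *Smad7*, beside 25.6% and 24.7%.

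At *Nodal* the peaks of 7 lists met upstream of the start. The Oct4 ChIP peak of control ESC spanned 60878739 to 60878915, centred 1893 bases before the start, and that of hairpin #2 lay 1916 bases before it. Ring1B peaks covered this place in all 3 ESC lists, at 60878111 to 60879708 in control, 60878042 to 60880005 in hairpin #2 and 60878378 to 60879281 in hairpin #4. The Oct4 DamID peak (60876662 to 60881283) and the Nup153 DamID peak (60876719 to 60881332) spanned both the Oct4 ChIP peaks and the gene start, whose flank is printed above.

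*Tdgf1* had an Oct4 ChIP peak in hairpin #2 only, 1499 bases before its start, and none in control. Its Oct4 DamID peak at 110847995 to 110851868 and Nup153 DamID peak at 110848098 to 110851228 both covered that place and the start. A second pair of DamID peaks lay farther upstream, centred 7710 bases (Oct4) and 7749 bases (Nup153) before the start, and Nup153 had another that reached past the 3′ end. Ring1B had 4 peaks upstream in control, with centres from 1756 to 8114 bases before the start, and 1 in each hairpin list, at 1188 and 1656 bases. The second pair of DamID peaks lay within another gene, *Lrrc2* (110854049 to 110886568, plus strand). So did the control Ring1B peaks centred 6862 and 8114 bases before the *Tdgf1* start. Which gene these peaks belong to was not tested. The control Ring1B library, with 4 peaks here, was the shallowest of the Ring1B libraries.

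*Lefty2* had 1 upstream place where the lists met. An Oct4 ChIP peak of hairpin #2 lay 4289 bases before the start, inside the Oct4 DamID peak (182818043 to 182822057), the Nup153 DamID peak (182817990 to 182821197) and the Ring1B peaks of control, hairpin #2 and hairpin #4. The Ring1B centres were 4154, 4129 and 4195 bases before the start, so the 3 lists agreed on the place within their widths. A Cbx7 peak lay apart from it, inside the gene, at 182823677 to 182825098.

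*Lefty1* differed from *Lefty2* in having Oct4 ChIP peaks without DamID peaks in its window. Oct4 peaks lay 1132 bases (control) and 1139 bases (hairpin #2) before the start and were overlapped by no Ring1B peak. The Ring1B peaks common to the 3 ESC lists were near the edge of the window, 10048, 10130 and 10170 bases before the start, with a Cbx7 peak at 10192 bases. With a window of 5 kb upstream *Lefty1* had no Ring1B peak in control or hairpin #4 and no Cbx7 peak. Hairpin #2, the deepest of the ESC Ring1B libraries, had 2 more Ring1B peaks here, 496 bases before the start and within the gene.

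At *Gdf3* the shared place was inside the gene. The Oct4 ChIP peaks spanned 122558551 to 122558727 in control and 122558585 to 122558759 in hairpin #2, and Ring1B peaks covered them in all 3 ESC lists. No DamID peak lay in its window. *Acvr2b* had 1 peak in all, a Ring1B peak of hairpin #2 at 119311881 to 119313309. *Smad7* had 2 Nup153 DamID peaks within the gene and 1 across its 3′ end, a Cbx7 peak and, in control, 2 Ring1B peaks within the gene, and 1 Ring1B peak upstream in hairpin #2, with no Oct4 peak in any list.

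**Figure D3:**
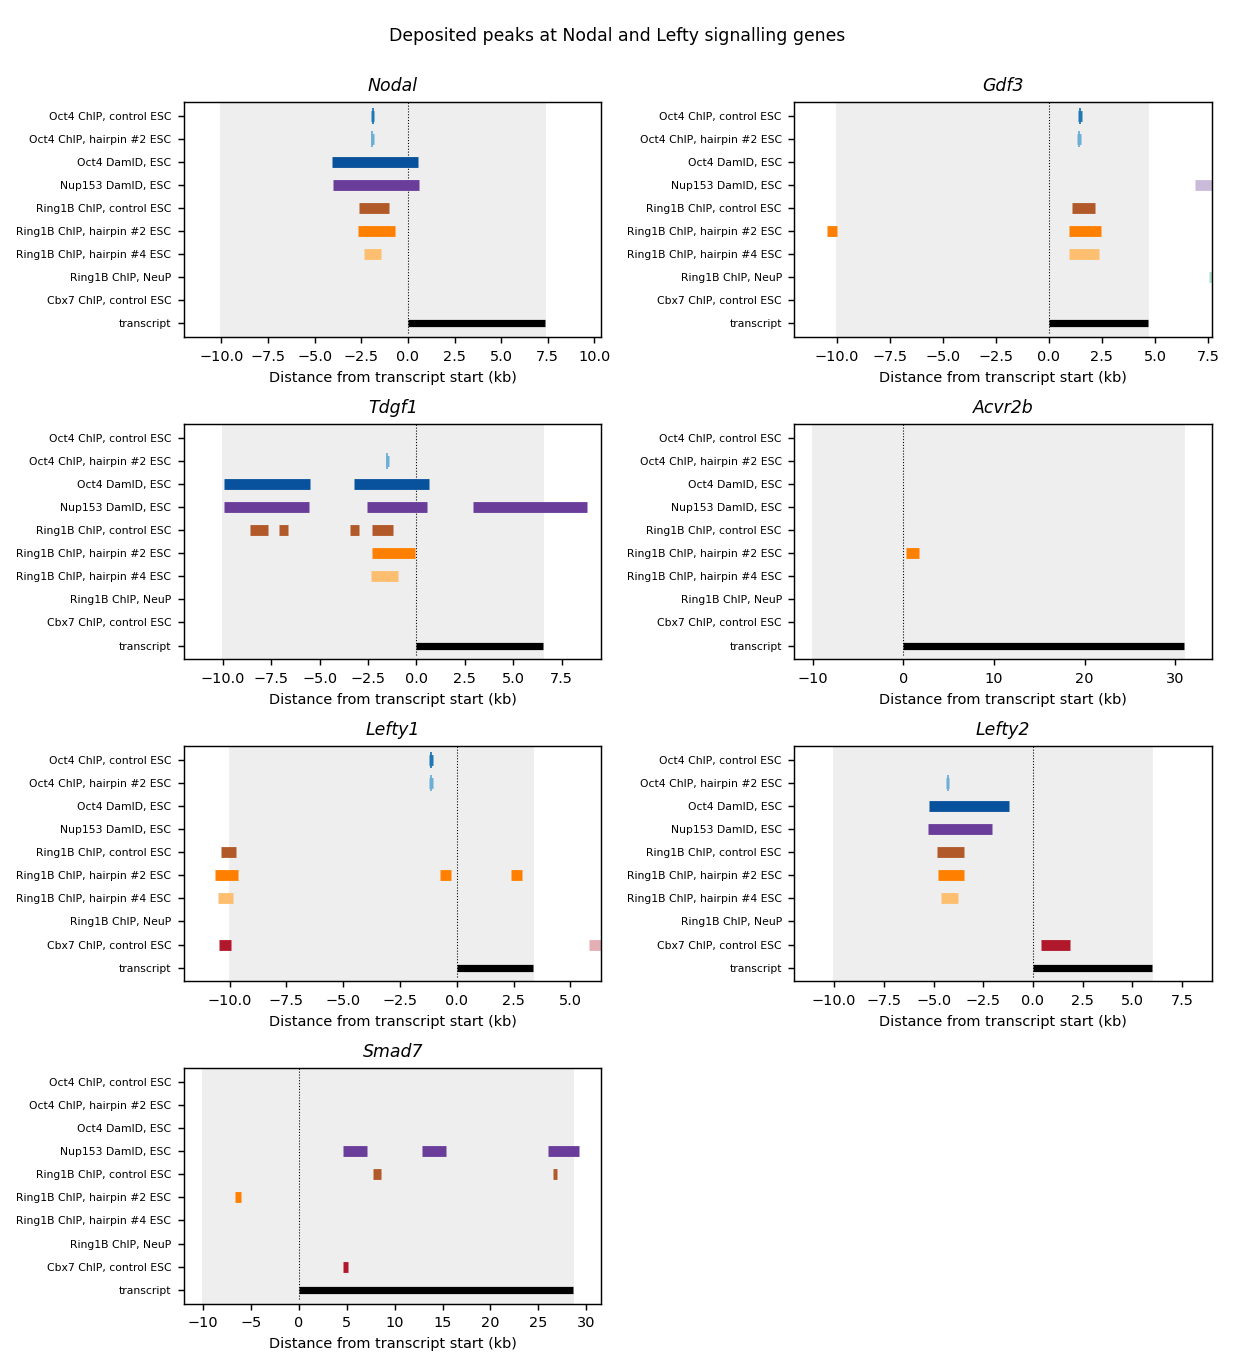
Position of deposited peaks (kb from the transcript start, in the direction of the gene) in 9 lists at the 7 genes; the grey band is the window from 10 kb upstream to the transcript end and the black bar the transcript. Oct4 ChIP, both DamID lists and the ESC Ring1B lists meet upstream of *Nodal*, *Tdgf1* and *Lefty2*. At *Tdgf1* and *Lefty2* the Oct4 ChIP peak is in the hairpin #2 list only. The NeuP Ring1B row holds no peak in the windows, though peaks lie within 50 kb of 6 of the 7 genes. The share of all genes with such a peak within 50 kb was not counted.

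Of the Oct4 ChIP peaks at these genes, 2 of 3 in control (*Nodal* and *Gdf3*) were overlapped by a control Ring1B peak, where 67.9% of the whole Oct4 list was. In hairpin #2 it was 4 of 5 (all but *Lefty1*) beside 71.2% for the hairpin #2 Ring1B list. Nup153 DamID peaks overlapped 1 of 3 Oct4 peaks in control, at *Nodal*, beside 15.6% of the list, and 3 of 5 in hairpin #2, at *Nodal*, *Tdgf1* and *Lefty2*, beside 14.2%. No Cbx7 peak and no NeuP Ring1B peak overlapped an Oct4 ChIP peak at these genes, beside 35.4% and 7.8% of the control list.

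The RNA difference at each locus was set beside that of neighbours with starts within 100 kb. Around *Nodal*, whose log2 differences were 1.06 and 1.04 for hairpins #2 and #4, *Pald1* had 0.06 and 0.06, *Eif4ebp2* 0.12 and 0.02, and *Lrrc20* 0.45 and 0.62. Around *Gdf3*, with 1.07 and 1.09, the germ cell and pluripotency gene *Dppa3*, which starts 16353 bases away, had -0.60 and -0.52, *Apobec1* -0.02 and 0.02, *Mfap5* 0.08 and 0.06, and *Nanog*, 97418 bases away, 0.44 and 0.60. Around the *Lefty* pair, with 1.50 and 1.87 for *Lefty1* and 0.83 and 0.74 for *Lefty2*, *Tmem63a* had 0.04 and 0.11, *Sde2* -0.26 and -0.26, and *Ephx1* -0.13 and -0.21. At each of the 3 loci the named gene had a larger difference than any of these neighbours, and *Dppa3* and *Gdf3* lay on opposite sides of control. The named genes were chosen with their RNA levels known, so nothing is read from this order. At *Acvr2b*, with -0.09 and -0.24, the neighbours *Myd88* (0.26 and 0.32) and *Xylb* (0.13 and 0.33) had larger differences. *Oxsr1*, *Acaa1a* and *Exog* had smaller ones there. At *Tdgf1*, with -0.17 and 0.93, the neighbour *Prss50* had -0.19 and -0.17. *Lrrc2*, which starts 5387 bases away, had 0.04 and -0.01, *Tmie* 0.13 and 0.10, and *Als2cl* -0.08 and -0.19. None of these neighbours was called by limma in the knockdown.

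**Figure D4:**
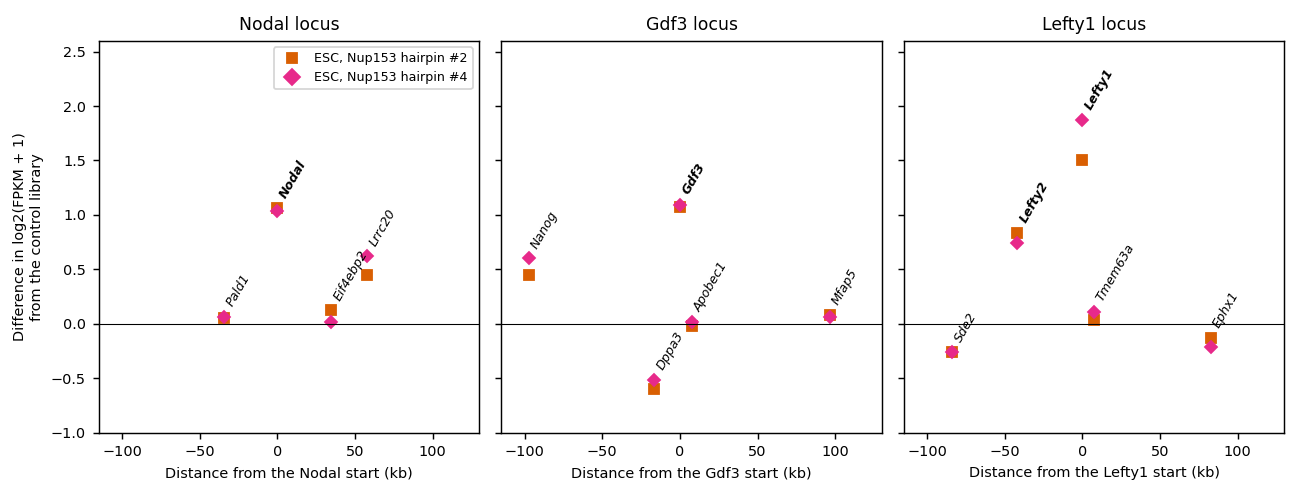
Difference in log2(FPKM + 1) from control for each hairpin, against distance from the gene start (kb, negative upstream of that gene), for named genes that start within 100 kb of *Nodal*, *Gdf3* and *Lefty1*. *Nodal*, *Gdf3*, *Lefty1* and *Lefty2* (bold) lie above their neighbours, and *Dppa3* lies below 0.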

How the data were processed

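RNA values are FPKM as deposited by the authors, 1 transcript per gene. Per the submitters' processing notes the tools were CASAVA 1.8.2, STAR 2.2.0c, Bowtie2 2.1.0, HOMER 4.6 and edgeR, with the mm9 build. The libraries were strand-specific and polyadenylated per the labels' protocols. ChIP lists were called with HOMER findPeaks against an IgG library from ESC, per the file headers. No source used here says how DamID replicates were combined, and peak heights were not used here.

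Reads were recovered from the FPKM steps (99.95% to 100% of low values whole within 0.1 read). Genes with at least 1 FPKM in at least 1 library (13750) were fitted with limma 3.58.1 in R 4.3.3 on log2(FPKM + 1), 5 libraries in 3 groups, two-sided, Benjamini-Hochberg adjusted, called under 0.05. The hairpins stood as replicates, and the fit gave the single control the spread of the others (2 residual and 1.74 prior degrees of freedom). Counting intervals are exact at 95%. Peak overlap needed 1 bp. Other tools were matplotlib 3.10.9, scipy 1.17.1, pandas 2.3.3, numpy 2.4.6 and Python 3.11.15.

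The 7 genes and all lists were chosen with earlier results of these data known. The text names all 7, the pathway genes that passed the test or had the 3 highest and lowest differences, and the 2 nearest genes in level, except that a pathway target and a neighbouring gene are not reported here. Alternatives changed the pseudocount, filter, normalization, tool, libraries and peak window. The input and GFP libraries were not analysed here.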

Additional observations from a re-analysis of the deposited data

How the results depend on the processing

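Across 9 alternatives the log2 difference of the knockdown kept its sign for *Nodal* (0.92 to 1.13), *Gdf3* (0.95 to 1.17), *Lefty1* (1.50 to 3.53), *Lefty2* (0.68 to 1.58) and *Acvr2b* (-0.27 to -0.09). *Tdgf1* turned to -0.17 without hairpin #4 and *Smad7* to -0.06 with quantile normalization. Across 8 alternatives in NeuP all 7 kept their sign. Without the filter on low values limma called 230 genes in the knockdown (55 higher, 175 lower) in place of 0, among 24016, and the cause was not tested. Leaving out 1 library at a time moved the NeuP calls from 5936 to between 1822 (without hairpin #4; 1827 without hairpin #2) and 11245 (without NeuP replicate 2; 10619 without replicate 1), and the pathway calls from 13 to between 9 and 24. Quantile normalization moved the median NeuP difference of all genes from -0.26 to -0.06. Of 63 gene and list pairs 36 had a peak, and 24 to 50 did under other windows. In NeuP, Ring1B peaks went from 0 to 6 of the 7 genes within 50 kb on both sides, Oct4 DamID from 3 to 6. Within 2 kb of the start, Nup153 DamID fell to 2 genes, Ring1B to 3 in control and hairpin #4, and Cbx7 to 1. The shares of all genes in these other windows were not counted, so nothing is read from these counts. No paired analysis was possible because the control has 1 library and the hairpin numbers name reagents that NeuP and control do not share. Low read counts limit *Lefty1* in control and all 4 genes at 0 in NeuP.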

Other observations

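The window of *Gdf3* held no DamID peak, but DamID peaks lay on either side of it. A Nup153 DamID peak lay past the 3′ end of *Gdf3*, at 122550697 to 122553197, and a NeuP Ring1B peak at 122552065 to 122552565 overlapped it. *Apobec1*, on the minus strand, begins at 122552462, so both of these peaks covered its start. Oct4 ChIP peaks lay at 122574609 to 122574785 in control and 122574613 to 122574787 in hairpin #2 on chromosome 6 (mm9), 14608 and 14611 bases before the *Gdf3* start. An Oct4 DamID peak (122573218 to 122577118), a Nup153 DamID peak (122573209 to 122577432) and Ring1B peaks of all 3 ESC lists covered the same place. *Dppa3* begins at 122576442, so both DamID peaks also covered its start. *Dppa3* RNA was at 50.0, 32.7 and 34.6 FPKM in control, hairpin #2 and hairpin #4, below control with both hairpins, whereas *Gdf3* was above it.

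Downstream of *Lefty1*, toward *Tmem63a*, Ring1B peaks of hairpin #2 (182871585 to 182873040) and hairpin #4 (182871743 to 182872243) on chromosome 1 overlapped a Cbx7 peak of control (182870980 to 182872585), and no control Ring1B peak was listed there. *Tmem63a* RNA was at 2.00, 2.08 and 2.23 FPKM in the 3 ESC libraries and at 7.71 and 7.67 FPKM in NeuP.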
